A study of Homo sapiens with 12 samples.

Results

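Expression of 10 genes of glutathione synthesis and antioxidant defence was followed in HUDEP-2 cells with and without the methyl-CpG binding protein MBD2. The genes were chosen by function and matched by Ensembl identifier, and they are 10 of the 60483 genes counted. GCLC and GCLM encode the catalytic and modifier subunits of glutamate-cysteine ligase. CAT, PRDX2, GPX1 and GPX4 encode enzymes that break down peroxides. TXNRD1 encodes the cytosolic thioredoxin reductase, NQO1 a quinone reductase and HMOX1 the inducible heme oxygenase. SELENBP1 encodes a selenium-binding protein with methanethiol oxidase activity.

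HUDEP-2 is a human erythroid line immortalized from cord blood cells, whose growth depends on doxycycline. The 4 groups held 3 libraries each. They were MBD2 knockout cells (genotype MBD2-/-) after erythroid differentiation, control cells with a scrambled guide RNA (genotype WT) after it, knockout cells before it, and control cells before it. The labels call the cells late basophilic erythroblasts after and early basophilic erythroblasts before differentiation. Cells after differentiation were in IMDM with human AB serum, insulin, heparin and holo-transferrin, and cells before it were in SFEM with stem cell factor and dexamethasone, so that stage and medium cannot be told apart. All groups received erythropoietin and doxycycline. The labels give the length of differentiation as 3 days in the account of RNA extraction and as 5 days in the account of culture. They do not say whether the knockout cells were 1 clone or whether the 3 libraries of a group were separate cultures, so that a p-value covers the spread among these libraries and no more. In bulk RNA, fewer cells of a type and less RNA per cell cannot be told apart.

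Red cells carry heme iron and oxygen and meet a steady load of superoxide and hydrogen peroxide. Catalase, peroxiredoxin 2 and glutathione peroxidases remove the peroxide. Glutathione and thioredoxin supply the electrons, and both are recharged from NADPH. The transcription factor NRF2 (gene NFE2L2) switches on many of these genes by binding antioxidant response elements with a small MAF partner. KEAP1 sends NRF2 to degradation, and the heme sensor BACH1 occupies the same elements and represses them. MBD2 binds methylated CpG sites and joins the NuRD chromatin remodeling complex.

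Promoters are shown for 5 genes, because MBD2 reads CpG sites and NRF2 reads antioxidant response elements. Promoter sequences came from RefSeq (build GRCh38.p14), ran from 250 bases before to 50 bases after the annotated start (300 bases), and were found for 8 of the 10 genes. HMOX1 and SELENBP1 had no entry. The element core TGACNNNGC was searched on both strands and is printed in capitals, with positions counted from the start site. The 5 windows are chr1:93909381-93909680 (minus strand), chr12:104215529-104215828 (plus strand), chr19:12801751-12802050 (minus strand), chr11:34438684-34438983 (plus strand) and chr16:69726511-69726810 (minus strand).
GCLM: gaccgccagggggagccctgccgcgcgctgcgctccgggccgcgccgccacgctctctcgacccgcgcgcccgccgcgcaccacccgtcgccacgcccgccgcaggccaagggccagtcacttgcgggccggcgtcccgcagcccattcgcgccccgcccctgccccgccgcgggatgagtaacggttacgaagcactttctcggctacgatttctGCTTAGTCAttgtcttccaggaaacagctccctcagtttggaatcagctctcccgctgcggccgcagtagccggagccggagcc
TXNRD1: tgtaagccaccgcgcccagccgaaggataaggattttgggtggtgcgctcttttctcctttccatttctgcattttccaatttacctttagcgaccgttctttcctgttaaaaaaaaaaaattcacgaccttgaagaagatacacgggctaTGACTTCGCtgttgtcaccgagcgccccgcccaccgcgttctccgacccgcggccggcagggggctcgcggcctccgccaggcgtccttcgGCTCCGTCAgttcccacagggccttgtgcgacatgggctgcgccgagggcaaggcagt
PRDX2: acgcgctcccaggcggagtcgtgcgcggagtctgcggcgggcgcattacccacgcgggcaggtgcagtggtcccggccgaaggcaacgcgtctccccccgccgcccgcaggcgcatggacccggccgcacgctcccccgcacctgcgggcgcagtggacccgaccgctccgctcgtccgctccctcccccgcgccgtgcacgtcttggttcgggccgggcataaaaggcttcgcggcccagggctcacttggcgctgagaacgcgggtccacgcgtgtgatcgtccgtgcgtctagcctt
CAT: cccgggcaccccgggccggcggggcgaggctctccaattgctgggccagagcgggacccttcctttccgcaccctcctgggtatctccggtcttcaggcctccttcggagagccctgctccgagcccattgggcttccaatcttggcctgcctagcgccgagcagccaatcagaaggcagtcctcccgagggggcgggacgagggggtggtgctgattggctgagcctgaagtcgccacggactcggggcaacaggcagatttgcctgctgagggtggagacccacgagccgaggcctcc
NQO1: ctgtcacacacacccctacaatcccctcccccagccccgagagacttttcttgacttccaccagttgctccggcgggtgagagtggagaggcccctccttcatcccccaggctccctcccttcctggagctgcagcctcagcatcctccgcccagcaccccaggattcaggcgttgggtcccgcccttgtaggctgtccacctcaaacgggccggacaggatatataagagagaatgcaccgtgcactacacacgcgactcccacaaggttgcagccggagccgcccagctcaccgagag

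The core was present in 2 of the 8 promoters, GCLM and TXNRD1, against 13.6% of 27305 RefSeq promoters of this length. In GCLM the match lay at -34 on the minus strand of the window. In TXNRD1 one match lay at -99 on the plus strand and another at -8 on the minus strand. The AP-1 motif TGANTCA was in 0 of the 8, against 7.76% of all promoters. The GATA motif (GATA preceded by A or T and followed by A or G, both strands) was in 1 of the 8, GCLC, against 25.5%. No match says only that these letters are not in the window. CpG sites numbered 46 in PRDX2, 41 in GCLM, 39 in GPX4, 32 in GCLC, 27 in TXNRD1, 23 in GPX1, 20 in CAT and 14 in NQO1. The median over all promoters was 14, with quartiles of 3 and 28. PRDX2 and GCLM had the CpG-richest windows of the 8, and NQO1 stood at the median of all promoters. Methylation was not measured in these libraries.

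The libraries held 7667997 to 14047498 counts. MBD2 itself ranged from 14.6 to 16.8 CPM (counts scaled to library sizes that were adjusted with TMM factors) in knockout cells after differentiation and from 58.2 to 61.4 CPM in control cells after it. Before differentiation it ranged from 19.8 to 24.5 CPM in knockout cells and from 75.3 to 78.7 CPM in control cells, so that every library matched the genotype in its label. MBD2 was not used to check the stage. Ribosomal RNA genes took 1.68 to 2.74% of counts in knockout cells after differentiation, 0.562 to 1.05% in control cells after it, 0.842 to 1.29% in knockout cells before it and 0.394 to 1.08% in control cells before it. The calls of the 10 genes were the same in every comparison when genes of ribosomal RNA, mitochondria and globins were left out. With 3 libraries on each side, the smallest p of an exact permutation test (two-sided) is 0.1. Tests were therefore those of edgeR's quasi-likelihood fit across 17175 genes, with Benjamini-Hochberg adjustment over all of them and calls at an adjusted p under 0.05. Adjusted p below always means this test unless another is named. All 10 genes passed the filter on low counts.

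After differentiation, knockout cells held more mRNA than control cells for both subunits of glutamate-cysteine ligase, catalase, peroxiredoxin 2 and SELENBP1, and less NQO1. These were 5 genes higher, 1 lower and 4 not called, where 33.1% of all tested genes were called (16.8% higher and 16.3% lower). The median log2 fold change of the 10 was 0.41, beside -0.01 over all tested genes. Library values did not overlap between the groups for 7 of the 10 genes, against 46.7% of all genes. The exceptions were GPX1, GPX4 and HMOX1. Scaling by library size alone moved the median of all genes to -0.17 and the share of higher genes among those called to 27.6%, against 50.7% with TMM factors. It changed no call of the 10 genes after differentiation.

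Before differentiation 6 of the 10 genes were higher in knockout cells (GCLC, CAT, PRDX2, GPX1, HMOX1 and SELENBP1), 1 was lower (NQO1) and 3 were not called. Of all tested genes 17.2% were called, 9.07% higher and 8.15% lower. The median log2 fold change was 0.27 for the 10 genes and 0.00 for all tested genes. Values did not overlap for 8 of the 10 genes, against 30.7% of all genes, and GPX4 and TXNRD1 were the exceptions. Without control replicate 2 before differentiation only 3 of the 10 genes were called higher and 0 lower. Calls over all genes fell too, to 1057 higher and 1045 lower of 17662 tested, against 1558 and 1400 of 17175 in the main fit. The count of lower genes among the 10 was also 0 without control replicate 1 or knockout replicate 2 before differentiation. Those of the 10 genes whose calls were lost are named with their values below.

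With differentiation 7 of the 10 genes were higher and 2 lower in knockout cells, where 55.7% of all tested genes were called (28% higher and 27.7% lower). In control cells 5 were higher and 2 lower, where 43.8% were called (21.5% higher and 22.3% lower). The median log2 fold change of the 10 was 0.73 in knockout cells and 0.19 in control cells, beside 0.03 and 0.01 over all tested genes. Values after and before differentiation did not overlap for 9 of the 10 genes in knockout cells and for 7 in control cells, against 60% and 54.1% of all genes. The stage difference is the knockout effect after minus that before differentiation. It was called for 3 of the 10 genes, all positive, where 13% of all tested genes were called (6.28% positive and 6.68% negative). Scaling by library size alone put the median of all genes at -0.16 for differentiation of knockout cells and at -0.15 for the difference between stages. The share of higher genes among those called was then 35.1% for differentiation of knockout cells, against 50.3% with TMM factors, and 23.1% for the difference between stages, against 48.5%.

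**Figure D1:**
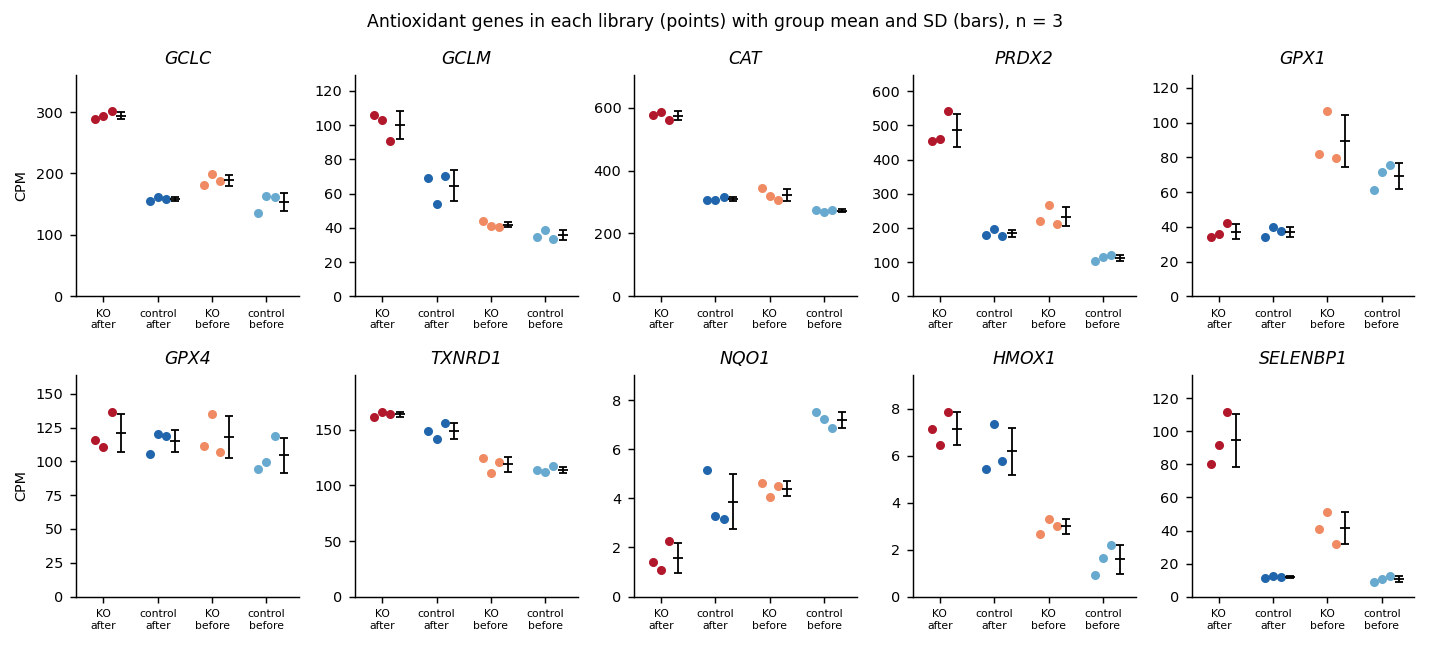
CPM of the 10 genes in each library (points) for knockout and control cells after and before differentiation, with group means and SD bars beside them (n = 3). SELENBP1, PRDX2, CAT and GCLC stand apart in knockout cells after differentiation, while NQO1 is lowest there.

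GCLC (ENSG00000001084.9, hg38 chr6:53497341-53616970, minus strand) encodes the subunit that joins glutamate to cysteine, the limiting step of glutathione synthesis. It measured 289, 293 and 301 CPM in knockout cells after differentiation and 155, 161 and 159 CPM in control cells after it. Before differentiation it measured 181, 198 and 188 CPM in knockout cells and 136, 163 and 162 CPM in control cells. The knockout libraries after differentiation stood far above all 9 others, and knockout and control values did not overlap at either stage. The log2 fold change in knockout cells was 0.89 ± 0.07 (SE, adjusted p = 3.69e-08) after and 0.30 ± 0.07 (adjusted p = 0.00636) before differentiation, and the effects differed between stages by 0.59 ± 0.10 (adjusted p = 7.68e-04). With differentiation GCLC rose by 0.64 ± 0.07 (adjusted p = 7.07e-07) in knockout cells and measured 0.04 ± 0.07 (adjusted p = 0.644) in control cells. Of its 8463 exon bases, 536 (6.33%) overlap other genes, and the authors' counting used no strand, so reads there cannot be assigned.

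GCLM (ENSG00000023909.8, hg38 chr1:93885205-93909456, minus strand) encodes the subunit that makes the ligase more active. It measured 106, 103 and 90.5 CPM in knockout cells after differentiation and 69.0, 54.2 and 70.4 CPM in control cells after it. At the earlier stage it was at 43.7, 41.2 and 40.6 CPM in knockout cells and 34.9, 38.9 and 33.5 CPM in control cells. Values did not overlap between genotypes at either stage, and every library after differentiation lay above every library before it. GCLM was higher in knockout cells after differentiation, by 0.64 ± 0.09 on the log2 scale (adjusted p = 5.30e-05). Before differentiation the change was 0.22 ± 0.10 (adjusted p = 0.145), not called. The difference between stages, 0.41 ± 0.14, had an adjusted p of 0.0596. That difference passed the threshold without control replicate 3 before differentiation (0.0446), control replicate 3 after it (0.0423) or knockout replicate 3 after it (0.0348). With differentiation GCLM rose in both genotypes, by 1.25 ± 0.10 (adjusted p = 1.06e-08) in knockout cells and 0.84 ± 0.10 (adjusted p = 2.76e-06) in control cells.

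The subunits were also set against each other per exon length, as the ratio of GCLC to GCLM in FPKM (read pairs scaled by exon length and by TMM-scaled library size). The ratio was 1.90 ± 0.20 in knockout cells and 1.6 ± 0.27 in control cells after differentiation (SD, n = 3 each). Before differentiation it was 2.90 ± 0.23 in knockout cells and 2.76 ± 0.30 in control cells. The ranges of the genotypes overlapped at each stage, and all 6 libraries after differentiation lay below all 6 before it.

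CAT (ENSG00000121691.4, hg38 chr11:34438925-34472062, plus strand) encodes catalase, which splits hydrogen peroxide without a cofactor from the glutathione or thioredoxin systems. It measured 576, 587 and 561 CPM in knockout cells after differentiation and 306, 307 and 316 CPM in control cells after it. Before differentiation it stood at 344, 318 and 307 CPM in knockout cells and 276, 267 and 275 CPM in control cells. The genotypes did not overlap at either stage, and knockout libraries before differentiation overlapped control libraries after it. The log2 fold change in knockout cells was 0.89 ± 0.06 (adjusted p = 5.91e-09) after and 0.24 ± 0.06 (adjusted p = 0.00891) before differentiation, with a difference of 0.65 ± 0.09 (adjusted p = 1.07e-04). The earlier of these calls was not made without control replicate 2 before differentiation (adjusted p = 0.0586). With differentiation CAT rose by 0.83 ± 0.06 (adjusted p = 4.88e-09) in knockout cells. In control cells the rise was 0.19 ± 0.06 (adjusted p = 0.0194). That call was lost without control replicate 2 before (0.0887), control replicate 3 before (0.0519) or control replicate 3 after differentiation (0.0696), with library sizes only (0.0724) and with no filter on low counts (0.181).

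PRDX2 (ENSG00000167815.10, hg38 chr19:12796820-12801859, minus strand) encodes the thioredoxin-dependent peroxidase that is among the most plentiful proteins of the red cell. It measured 456, 461 and 541 CPM in knockout cells after differentiation and 179, 195 and 178 CPM in control cells after it. Before differentiation it measured 221, 266 and 212 CPM in knockout cells and 103, 114 and 120 CPM in control cells. The 4 groups did not overlap at all, and undifferentiated knockout cells lay above differentiated control cells. PRDX2 was 2.64-fold higher in knockout cells after differentiation (log2 fold change 1.4 ± 0.09, adjusted p = 3.86e-09). Before differentiation it was 2.08-fold higher (1.06 ± 0.09, adjusted p = 3.41e-07). The difference between stages was 0.34 ± 0.13 (adjusted p = 0.0910), and it passed the threshold without knockout replicate 2 before differentiation (0.45, adjusted p = 0.0132). With differentiation PRDX2 rose by 1.06 ± 0.09 (adjusted p = 3.80e-08) in knockout cells and by 0.72 ± 0.09 (adjusted p = 8.24e-06) in control cells. Of its 2093 exon bases, 296 (14.1%) overlap an unnamed gene on the other strand.

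Per exon length, the ratio of PRDX2 to CAT was 1.35 ± 0.16 in knockout cells and 0.95 ± 0.06 in control cells after differentiation (SD, n = 3 each). Before differentiation it was 1.16 ± 0.16 in knockout cells and 0.66 ± 0.05 in control cells. On these lengths (2093 bases for PRDX2 and 3347 for CAT) PRDX2 stood above catalase in every knockout library. It stood below catalase in every control library but control replicate 2 after differentiation, whose ratio was 1.02. The lengths count all annotated exon bases, and the transcripts present were not measured. Where the ratio crosses 1 depends on the lengths used, which were the same for all groups.

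GPX1 and GPX4 are selenoproteins that spend glutathione, GPX1 on soluble peroxides and GPX4 on lipid peroxides in membranes. GPX1 (ENSG00000233276.3, hg38 chr3:49357176-49358600, minus strand) measured 33.9, 35.8 and 42.0 CPM in knockout cells and 34.0, 39.7 and 37.5 CPM in control cells after differentiation. At the earlier stage it measured 82.1, 106 and 79.6 CPM in knockout cells and 61.2, 71.4 and 75.8 CPM in control cells. All 6 libraries after differentiation lay below all 6 before it, and the genotypes overlapped only after differentiation. GPX1 fell with differentiation by 1.27 ± 0.12 (adjusted p = 9.77e-08) in knockout cells and by 0.90 ± 0.12 (adjusted p = 7.22e-06) in control cells. After differentiation the knockout change was 0.00 ± 0.12 (adjusted p = 0.998). Before it GPX1 was higher in knockout cells, 0.36 ± 0.11 (adjusted p = 0.0298). It was not called there without control replicate 1 (0.28, adjusted p = 0.150) or knockout replicate 2 (0.22, adjusted p = 0.162). The same held without control replicate 2 (adjusted p = 0.0661), with library sizes only (0.0651) and with only the compared groups in the fit (0.0708). The difference between stages was -0.36 ± 0.16 (adjusted p = 0.168).

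The processed pseudogene GPX1P1 on chromosome X was counted beside GPX1 and can share its reads. It held 26 to 41 counts in knockout libraries and 38 to 68 in control libraries after differentiation, and 96 to 130 in knockout libraries and 82 to 119 in control libraries before it. GPX1 itself held 289 to 333 counts in knockout libraries and 356 to 546 in control libraries after differentiation, and 880 to 1185 in knockout libraries and 652 to 1055 in control libraries before it. The level of GPX1 is uncertain by what the counting split between them.

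GPX4 (ENSG00000167468.15, hg38 chr19:1103926-1106791, plus strand) was called in none of the 5 comparisons. It measured 116, 111 and 137 CPM in knockout cells and 105, 120 and 119 CPM in control cells after differentiation. Before differentiation it reached 112, 135 and 107 CPM in knockout cells and 94.6, 99.8 and 119 CPM in control cells. All 4 groups overlapped. The knockout change was 0.07 ± 0.11 (adjusted p = 0.645) after and 0.17 ± 0.10 (adjusted p = 0.294) before differentiation. The change with differentiation was 0.04 ± 0.10 (adjusted p = 0.793) in knockout cells and 0.14 ± 0.10 (adjusted p = 0.310) in control cells, and the stage difference was -0.10 ± 0.15 (adjusted p = 0.718). Per exon length, GPX4 over GPX1 was 2.29 ± 0.12 in knockout cells and 2.19 ± 0.05 in control cells after differentiation, and 0.93 ± 0.03 in knockout cells and 1.06 ± 0.07 in control cells before it (SD, n = 3 each).

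TXNRD1 (ENSG00000198431.14, hg38 chr12:104215779-104350305, plus strand) passes electrons from NADPH to thioredoxin. It measured 162, 166 and 164 CPM in knockout cells and 149, 142 and 156 CPM in control cells after differentiation. Levels before differentiation were 125, 111 and 121 CPM in knockout cells and 114, 112 and 117 CPM in control cells. The stages separated fully and the genotypes overlapped before differentiation. TXNRD1 rose with differentiation by 0.46 ± 0.06 (adjusted p = 6.80e-06) in knockout cells and by 0.38 ± 0.06 (adjusted p = 8.26e-05) in control cells. The knockout change was 0.14 ± 0.06 (adjusted p = 0.0968) after and 0.06 ± 0.06 (adjusted p = 0.583) before differentiation, and the stage difference was 0.08 ± 0.09 (adjusted p = 0.618). Its promoter window, printed above, holds the antioxidant response element core at both positions given there.

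NQO1 (ENSG00000181019.11, hg38 chr16:69706996-69726951, minus strand), a widely used marker of NRF2 activity, was the only one of the 10 genes that was lower in knockout cells. It measured 1.41, 1.08 and 2.25 CPM in knockout cells after differentiation and 5.16, 3.27 and 3.16 CPM in control cells after it. Before differentiation it measured 4.62, 4.04 and 4.52 CPM in knockout cells and 7.50, 7.25 and 6.86 CPM in control cells. The genotypes did not overlap at either stage, and control libraries before differentiation were the highest. Counts were low, 10 to 16 per knockout library and 30 to 55 per control library after differentiation, and 45 to 64 per knockout library and 72 to 107 per control library before it. The knockout change was -1.32 ± 0.27 (adjusted p = 0.00118) after differentiation. Before it the change was -0.71 ± 0.19 (adjusted p = 0.0171), a call lost without control replicate 1 (0.0561), control replicate 2 (0.0561) or knockout replicate 2 (0.0539). NQO1 fell with differentiation by 1.52 ± 0.27 (adjusted p = 1.24e-04) in knockout cells and by 0.90 ± 0.20 (adjusted p = 0.00145) in control cells. The stage difference was -0.61 ± 0.34 (adjusted p = 0.270). Of its 3254 exon bases, 575 (17.7%) overlap an unnamed gene on the other strand.

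HMOX1 (ENSG00000100292.15, hg38 chr22:35380361-35394214, plus strand), which opens the heme ring and is repressed by BACH1, was also scarce. It measured 7.15, 6.46 and 7.87 CPM in knockout cells and 5.44, 7.34 and 5.79 CPM in control cells after differentiation. At the earlier stage it stood at 2.67, 3.32 and 2.99 CPM in knockout cells and 0.94, 1.63 and 2.19 CPM in control cells. Genotypes overlapped after differentiation and not before it, and all libraries after differentiation lay above all those before it. HMOX1 rose with differentiation by 1.26 ± 0.21 (adjusted p = 9.02e-05) in knockout cells and by 1.97 ± 0.23 (adjusted p = 3.20e-06) in control cells. The knockout change was 0.19 ± 0.19 (adjusted p = 0.496) after differentiation. Before it the change was 0.90 ± 0.26 (adjusted p = 0.0219), with 33 to 37 counts per knockout library and 10 to 24 per control library. It was not called there without control replicate 1 (0.66, adjusted p = 0.109), without control replicate 2 (0.0661) or knockout replicate 2 (0.0731) and with only the compared groups in the fit (0.0585). The stage difference was -0.71 ± 0.32 (adjusted p = 0.168).

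SELENBP1 (ENSG00000143416.19, hg38 chr1:151364302-151372733, minus strand) had the largest knockout effect of the 10 genes at both stages. It measured 80.4, 91.7 and 112 CPM in knockout cells after differentiation and 11.3, 12.7 and 11.6 CPM in control cells after it. Levels before differentiation were 41.1, 51.4 and 32.1 CPM in knockout cells and 8.54, 10.4 and 12.2 CPM in control cells. Every knockout library lay above every control library of either stage, while control cells overlapped between stages. SELENBP1 was 7.94-fold higher in knockout cells after differentiation (log2 fold change 2.99 ± 0.16, adjusted p = 4.74e-10). Before differentiation it was 4.01-fold higher (2.00 ± 0.17, adjusted p = 2.19e-07). The effect was larger after differentiation by 0.99 ± 0.24 (adjusted p = 0.0110). With differentiation it rose by 1.19 ± 0.14 (adjusted p = 2.29e-06) in knockout cells and measured 0.20 ± 0.19 (adjusted p = 0.426) in control cells.

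**Figure D2:**
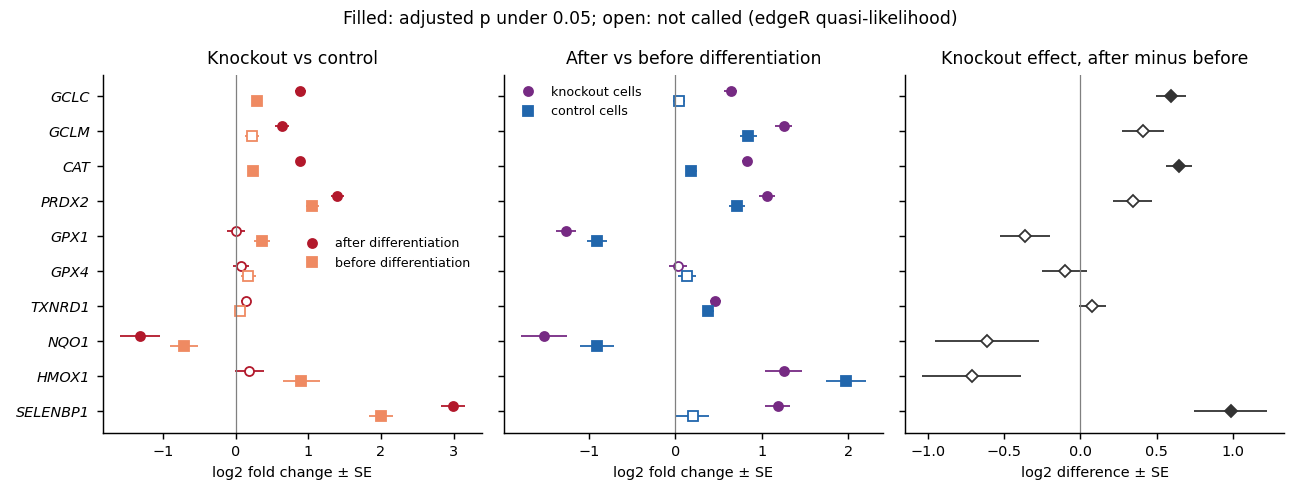
Log2 fold changes ± SE of the 10 genes for knockout against control (left), after against before differentiation (middle) and the difference of the knockout effect between stages (right), from edgeR's quasi-likelihood fit over 12 libraries. Filled symbols passed an adjusted p of 0.05, and in the right panel these are GCLC (0.59), CAT (0.65) and SELENBP1 (0.99).

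Levels were compared between genes per exon length. That length counts all annotated exon bases of a gene, and the transcripts present were not measured, so the order between genes depends on it. In knockout cells after differentiation PRDX2 was highest at 232 ± 23 FPKM (SD, n = 3), above CAT at 172 ± 4 and GPX4 at 59.9 ± 6.8. GCLC followed at 34.8 ± 0.7. SELENBP1 at 27 ± 4.6, GPX1 at 26.1 ± 3.0 and TXNRD1 at 24.4 ± 0.4 came next, and their ranges all overlapped one another. GCLM stood at 18.4 ± 1.5, HMOX1 at 2.98 ± 0.29 and NQO1 was lowest at 0.48 ± 0.19. In control cells after differentiation CAT at 92.6 ± 1.7 FPKM and PRDX2 at 87.9 ± 4.7 overlapped at the top. GPX4 at 56.9 ± 4.1, GPX1 at 26.0 ± 2.0, TXNRD1 at 22.2 ± 1.0 and GCLC at 18.7 ± 0.4 followed without overlap. GCLM at 11.9 ± 1.7, SELENBP1 at 3.38 ± 0.22, HMOX1 at 2.57 ± 0.42 and NQO1 at 1.19 ± 0.35 closed the order.

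In knockout cells before differentiation PRDX2 at 111 ± 14 FPKM and CAT at 96.5 ± 5.6 overlapped, as did GPX1 at 62.7 ± 10.4 and GPX4 at 58.4 ± 7.6. GCLC at 22.3 ± 1.1, TXNRD1 at 17.7 ± 1.0, SELENBP1 at 11.8 ± 2.7 and GCLM at 7.72 ± 0.30 were each distinct. NQO1 at 1.35 ± 0.10 and HMOX1 at 1.24 ± 0.14 overlapped at the bottom. In control cells before differentiation CAT led at 81.5 ± 1.3 FPKM. PRDX2 at 53.5 ± 4.0, GPX4 at 51.8 ± 6.4 and GPX1 at 48.7 ± 5.3 all overlapped one another. GCLC at 18.2 ± 1.8 overlapped TXNRD1 at 17 ± 0.4, and GCLM at 6.60 ± 0.51, SELENBP1 at 2.96 ± 0.52, NQO1 at 2.21 ± 0.10 and HMOX1 at 0.66 ± 0.26 were distinct. By group mean SELENBP1 held rank 5 of the 10 genes in knockout cells after differentiation and rank 8 in control cells at both stages. In the former its range overlapped those of GPX1 and TXNRD1, so these ranks were not distinct.

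**Figure D3:**
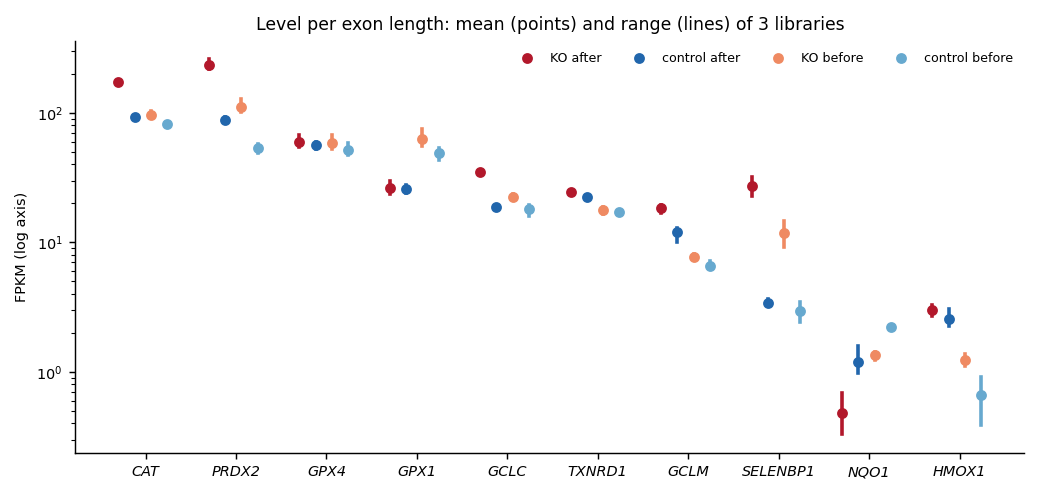
Level per exon length (FPKM, log axis) of each gene in the 4 groups, as the mean (points) and range (lines) of 3 libraries, ordered by the level in control cells before differentiation. PRDX2 reaches 232 FPKM in knockout cells after differentiation, and NQO1 and HMOX1 average under 3 FPKM in every group.

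Genes with the most similar profile were found by Pearson's r of log2 CPM over the 12 libraries, among 9602 or 9603 other protein-coding genes that averaged 2 or more in log2 CPM. The libraries share 4 groups, so r mostly reflects group means and is given as a description. For CAT these were UROS (r = 0.996), which encodes a heme synthesis enzyme, RORA (0.993) and BPGM (0.992), the red cell bisphosphoglycerate mutase. For PRDX2 they were ZDHHC3 (0.992), RMDN3 (0.990) and SPTB (0.989), the red cell beta-spectrin. For GCLC they were TMBIM1 (0.986), TP53BP2 (0.982) and RAP1GAP (0.982), and for GCLM TMEM41B (0.992), SDE2 (0.986) and LIN9 (0.984). For SELENBP1 they were CDC34 (0.987), FAM210B (0.983) and SNX22 (0.982). GPX1 was most like YKT6 (0.992), TXNRD1 like MAN1A1 (0.988), HMOX1 like LDB1 (0.980) and NQO1 like FAM117B (0.976). GPX4 had the weakest nearest profile, DHX30 (0.940). None of the 10 genes was among the 3 nearest of another.

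The wider pathway was read from 9 lists with 119 genes, of which 106 were tested. After differentiation 37 were higher and 25 lower in knockout cells, 58.5% of those tested, beside the 33.1% of all genes given above. Before differentiation 22 were higher and 13 lower, 33.0%, beside 17.2%. With differentiation 39 were higher and 37 lower in knockout cells, 71.7%, beside 55.7%. In control cells 35 were higher and 37 lower with differentiation, 67.9%, beside 43.8%. Their median log2 fold change between genotypes was 0.10 after and 0.05 before differentiation, beside -0.01 and 0.00 over all tested genes.

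Among regulators of NRF2 signaling 5 of 11 tested genes were higher in knockout cells after differentiation, 0 lower and 6 not called, and 3 were higher and 0 lower before it. Called genes made up 45.5% of the regulators after (median log2 fold change 0.29) and 27.3% before differentiation (median 0.20). NFE2L2 measured 158, 163 and 172 CPM in knockout cells and 162, 150 and 152 CPM in control cells after differentiation, and 90.7, 91.7 and 87.7 CPM in knockout cells and 105, 86.3 and 96.2 CPM in control cells before it. Its genotypes overlapped at both stages while its stages separated. The knockout change of NFE2L2 was 0.09 ± 0.07 (adjusted p = 0.371) after and -0.09 ± 0.07 (adjusted p = 0.468) before differentiation, and it rose with differentiation by 0.87 ± 0.07 (adjusted p = 2.15e-08) in knockout and 0.69 ± 0.07 (adjusted p = 5.61e-07) in control cells. KEAP1 measured 0.23 ± 0.11 (adjusted p = 0.126) after and 0.27 ± 0.11 (adjusted p = 0.106) before. KEAP1 was called after differentiation with only the compared groups in the fit (0.0205) or without knockout replicate 2 before differentiation (0.0483). It was called before differentiation with no filter on low counts (0.0193), without control replicate 3 (0.0286) or without knockout replicate 1 (0.0223).

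BACH1 measured 328, 306 and 315 CPM in knockout cells and 181, 164 and 186 CPM in control cells after differentiation, and 184, 162 and 174 CPM in knockout cells and 150, 145 and 137 CPM in control cells before it. Knockout libraries lay above control libraries at each stage. BACH1 was higher in knockout cells by 0.84 ± 0.07 (adjusted p = 5.52e-08) after and 0.27 ± 0.07 (adjusted p = 0.0120) before differentiation, with a stage difference of 0.57 ± 0.10 (adjusted p = 8.51e-04). Its call before differentiation was lost without control replicate 3 (0.0608) or knockout replicate 1 (0.0626). NFE2, the erythroid relative of NRF2 that binds similar elements, rose by 1.10 ± 0.07 (adjusted p = 1.98e-09) after and 0.58 ± 0.07 (adjusted p = 1.32e-05) before differentiation. NFE2L1, another relative, rose by 0.85 ± 0.09 (adjusted p = 2.29e-06) after and 0.32 ± 0.10 (adjusted p = 0.0285) before. The NFE2L1 call before differentiation was lost without control replicates 1 (0.155) or 2 (0.0659), without knockout replicates 1 (0.0556) or 2 (0.103), with library sizes only (0.0754) and with only the compared groups (0.0580). The remaining genes called after differentiation were the small MAF gene MAFG (0.84 ± 0.12, adjusted p = 2.85e-05) and the autophagy receptor SQSTM1 (0.69 ± 0.09, adjusted p = 7.79e-06), which lie outside the naming rule and were named after their values were seen.

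**Figure D4:**
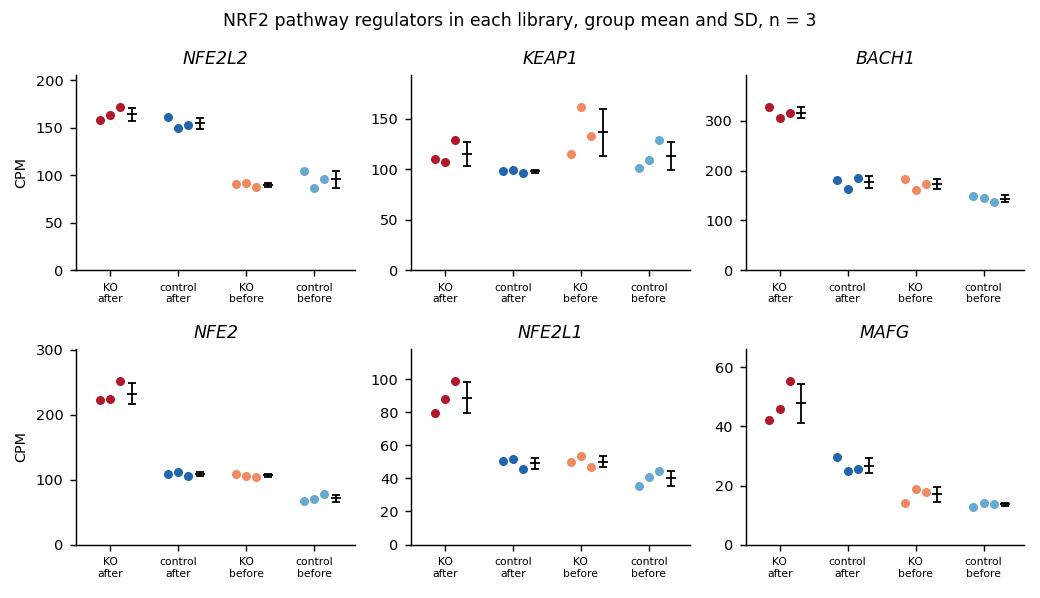
CPM of 6 regulators of NRF2 target genes in each library (points) with group mean and SD (n = 3), for knockout and control cells after and before differentiation. NFE2L2 separates by stage and not by genotype, whereas BACH1 and NFE2 are highest in knockout cells after differentiation.

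In glutathione synthesis and recycling 5 of 12 genes were higher, 3 lower and 4 not called in knockout cells after differentiation, and 4 higher and 0 lower before it. That was 66.7% of the list after (median log2 fold change 0.20) and 33.3% before differentiation (median 0.25). GSS was 1 of the 3 lower genes, with a knockout change of -0.58 ± 0.10 (adjusted p = 3.26e-04) after. Before differentiation GSS measured -0.03 ± 0.10 (adjusted p = 0.865). It was the list's only called stage difference, -0.55 ± 0.14 (adjusted p = 0.0160). That call was lost without knockout replicate 1 (0.0503) or 2 (0.0593) after differentiation. The 5-oxoprolinase OPLAH rose by 1.30 ± 0.16 (adjusted p = 6.95e-06) after and 1.66 ± 0.19 (adjusted p = 6.53e-06) before. The glyoxalase HAGH rose by 0.82 ± 0.09 (adjusted p = 3.00e-06) after and 0.55 ± 0.10 (adjusted p = 7.34e-04) before, and SLC3A2, the heavy chain of the cystine importer, by 0.65 ± 0.08 (adjusted p = 1.06e-05) after. With differentiation the cystine importer's light chain SLC7A11 rose by 2.82 ± 0.20 (adjusted p = 3.86e-09) in knockout cells and by 2.33 ± 0.20 (adjusted p = 8.42e-08) in control cells. GLO1, the first glyoxalase, fell with differentiation by 1.44 ± 0.07 (adjusted p = 5.44e-11) in knockout cells and by 1.29 ± 0.07 (adjusted p = 3.79e-10) in control cells.

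Of 14 tested glutathione peroxidases and transferases beside the 10 genes, 4 were higher and 5 lower in knockout cells after differentiation, and 3 higher and 6 lower before it. The share called was 64.3% at both stages, with a median log2 fold change of -0.07 after and -0.17 before differentiation. The transferase GSTP1 had the largest rise, 3.20 ± 0.35 (adjusted p = 1.50e-06) after and 2.14 ± 0.37 (adjusted p = 4.94e-04) before differentiation, at low levels. It measured 4.10, 5.06 and 5.76 CPM in knockout cells and 0.28, 0.80 and 0.42 CPM in control cells after differentiation, and 2.09, 3.32 and 1.72 CPM in knockout cells and 0.66, 0.54 and 0.38 CPM in control cells before it. Knockout and control libraries did not overlap at either stage. GSTM3 fell by 1.38 ± 0.06 (adjusted p = 8.09e-11) in knockout cells after differentiation, and the microsomal transferase MGST2 fell by 1.23 ± 0.13 (adjusted p = 1.65e-06) after. GSTM4 had the smallest adjusted p of this list between genotypes before differentiation, with -1.07 ± 0.12 (adjusted p = 8.54e-06). GSTM3 also fell with differentiation, by 3.07 ± 0.06 (adjusted p = 3.71e-15) in knockout cells and 1.91 ± 0.06 (adjusted p = 4.19e-13) in control cells. The GSTP1 promoter (chr11:67583562-67583861, plus strand, GRCh38.p14) was the only one of the wider lists read by name, so it says nothing about the list. It holds both an antioxidant response element core, in capitals at -66, and the AP-1 motif within it, with 36 CpG sites. Of all promoters 13.6% hold the core and 7.76% the AP-1 motif.
GSTP1: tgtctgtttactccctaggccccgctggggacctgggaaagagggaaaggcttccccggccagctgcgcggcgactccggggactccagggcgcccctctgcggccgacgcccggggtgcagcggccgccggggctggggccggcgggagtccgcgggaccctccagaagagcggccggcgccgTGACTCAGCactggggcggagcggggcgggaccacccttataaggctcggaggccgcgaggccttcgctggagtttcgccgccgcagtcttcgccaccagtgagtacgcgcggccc

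Of 19 tested peroxiredoxins, thioredoxins and glutaredoxins, 9 were higher and 6 lower in knockout cells after differentiation, and 1 higher and 3 lower before it. The share called was 78.9% after (median log2 fold change 0.23) and 21.1% before differentiation (median 0.03). GLRX5, a mitochondrial glutaredoxin of iron-sulfur cluster assembly, rose by 1.23 ± 0.07 (adjusted p = 8.66e-10) after and 0.71 ± 0.07 (adjusted p = 1.61e-06) before. The thioredoxin inhibitor TXNIP rose by 1.12 ± 0.08 (adjusted p = 1.88e-08) after differentiation and measured 0.13 ± 0.08 (adjusted p = 0.331) before, with a stage difference of 0.99 ± 0.12 (adjusted p = 4.15e-05). The reductase TXNRD3 fell by 1.19 ± 0.12 (adjusted p = 1.05e-06) after and by 1.32 ± 0.12 (adjusted p = 3.41e-07) before. PRDX1, a close relative of PRDX2, fell with differentiation by 1.38 ± 0.07 (adjusted p = 4.88e-11) in knockout cells and by 1.14 ± 0.07 (adjusted p = 8.41e-10) in control cells, where PRDX2 rose. TXNL1 fell by 0.52 ± 0.07 (adjusted p = 2.70e-05) after and by 0.50 ± 0.07 (adjusted p = 8.56e-05) before. It lies on chromosome 18, where the median change of 167 genes in knockout cells was -0.40 after and -0.48 before differentiation.

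Of 14 genes of NADPH supply, 5 were higher and 5 lower in knockout cells after differentiation, and 3 higher and 3 lower before it. Calls made up 71.4% of the list after (median log2 fold change -0.04) and 42.9% before differentiation (median 0.11). Mitochondrial isocitrate dehydrogenase IDH2 rose by 0.84 ± 0.09 (adjusted p = 9.06e-07) after, and PGD of the pentose phosphate pathway by 0.44 ± 0.07 (adjusted p = 2.47e-04) before. The malic enzymes ME3 and ME2 fell, ME3 by 1.70 ± 0.16 (adjusted p = 4.36e-07) and ME2, on chromosome 18, by 1.03 ± 0.08 (adjusted p = 3.60e-08) after. Both were also lower before differentiation, ME3 with -0.96 ± 0.14 (adjusted p = 7.54e-05) and ME2 with -0.57 ± 0.07 (adjusted p = 2.93e-05). PGD rose with differentiation by 1.25 ± 0.07 in both knockout cells (adjusted p = 2.46e-10) and control cells (adjusted p = 5.66e-10). Of 3 tested genes of the superoxide dismutase list 1 was higher and 0 lower in knockout cells at each stage (33.3%, median log2 fold change 0.12 after and 0.05 before). That share lies near the 33.1% of all tested genes called after differentiation, and 17.2% were called before it. The higher gene was the copper chaperone CCS, with 0.73 ± 0.08 (adjusted p = 2.06e-06) after and 0.26 ± 0.08 (adjusted p = 0.0440) before. The call before was lost with library sizes only (0.0955), no filter on low counts (0.102), only the compared groups (0.110), DESeq2 (0.0732) and limma-voom (0.0511). It was also lost without control replicates 1 or 2 before, control replicates 1, 2 or 3 after, knockout replicates 1 or 2 before, or knockout replicates 1 or 2 after differentiation (up to 0.189).

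Of 11 tested further NRF2 targets 2 were higher and 3 lower in knockout cells after differentiation, and 2 higher and 1 lower before it. Called genes were 45.5% of the list after (median log2 fold change -0.07) and 27.3% before differentiation (median 0.16). The glutathione conjugate exporter ABCC1 fell by 1.27 ± 0.10 (adjusted p = 5.09e-08) after, the epoxide hydrolase EPHX1 by 0.85 ± 0.18 (adjusted p = 0.00128) and the carbonyl reductase CBR1 by 0.46 ± 0.10 (adjusted p = 0.00192). With differentiation the ferritin heavy chain FTH1 rose by 2.00 ± 0.18 (adjusted p = 1.39e-07) in control cells, where UGDH fell by 1.56 ± 0.14 (adjusted p = 9.21e-08). In knockout cells UGDH fell by 1.66 ± 0.15 (adjusted p = 5.67e-08) and CBR1 by 1.56 ± 0.09 (adjusted p = 6.09e-10) with differentiation. The list then held 5 higher and 2 lower genes in control cells and 3 higher and 4 lower in knockout cells. That was 63.6% called in each, beside 43.8% and 55.7% of all tested genes. Of 4 heme breakdown genes beside HMOX1, 1 was higher and 1 lower after (50%, median log2 fold change -0.04), and 1 higher and 0 lower before (25%, median -0.02). The higher one was BLVRB, a biliverdin reductase plentiful in red cells, with 0.89 ± 0.07 (adjusted p = 7.62e-08) after and 0.60 ± 0.08 (adjusted p = 2.16e-05) before. The lower one was HMOX2, with -0.44 ± 0.15 (adjusted p = 0.0322) after. The HMOX2 call was lost without control replicate 1 (0.0712), control replicate 3 (0.110) or knockout replicate 1 (0.176) after differentiation. Of 18 tested selenoproteins and selenocysteine factors 5 were higher and 2 lower after, and 4 higher and 0 lower before. These shares, 38.9% after and 22.2% before, lie near the 33.1% and 17.2% of all tested genes, and the median log2 fold change was 0.00 after and -0.01 before. Selenoprotein P, SELENOP, led them with 2.95 ± 0.18 (adjusted p = 1.46e-09) after and 2.06 ± 0.16 (adjusted p = 1.16e-07) before.

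**Figure D5:**
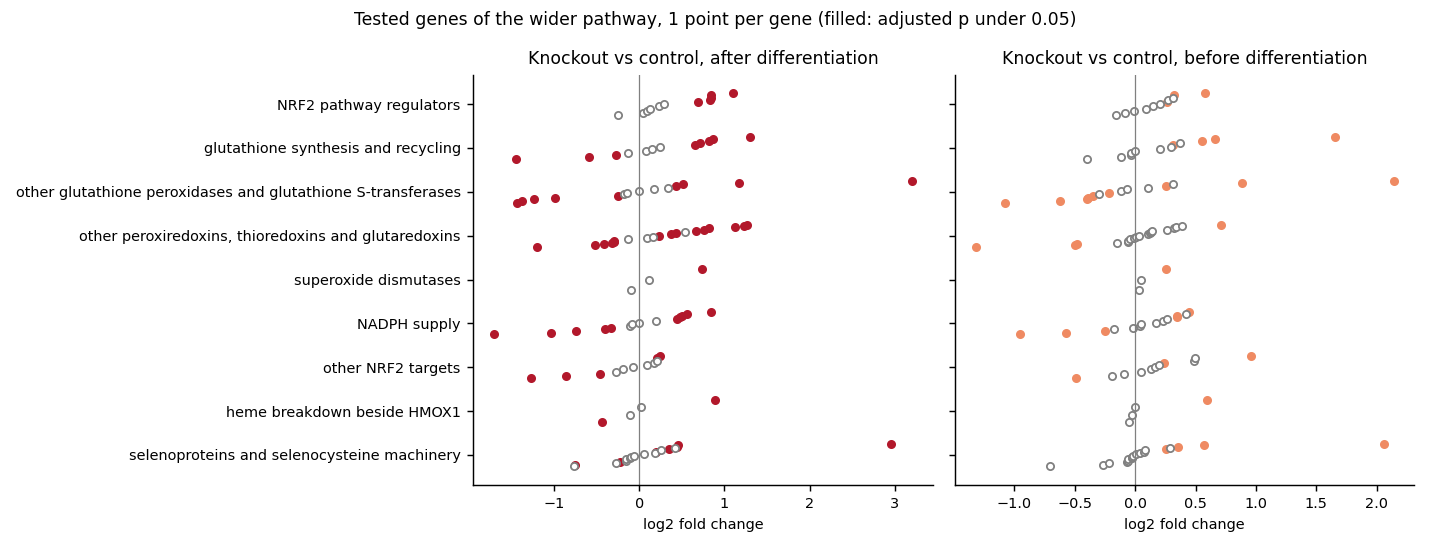
Log2 fold changes between knockout and control cells for the 106 tested genes of the 9 wider pathway lists, after (left) and before (right) differentiation, with 1 point per gene and filled points past an adjusted p of 0.05. Most lists hold points on both sides of 0, and the far right points are GSTP1 and SELENOP.

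Markers of cell types were read beside these results. Between genotypes, 16.8% of all tested genes were higher and 16.3% lower after differentiation, and 9.07% higher and 8.15% lower before it. Of 10 erythroid markers, 10 were higher in knockout cells after differentiation and 7 before it. Their summed level ranged from 16006 to 17856 CPM in knockout cells and 8086 to 8877 CPM in control cells after differentiation. Before it the sum ranged from 7057 to 8921 CPM in knockout cells and 6746 to 7734 CPM in control cells. The list includes HBB, and the kit removes globin mRNA, so its counts also depend on that removal. All globin genes took 0.220 to 1.25% of counts in knockout and 0.0834 to 0.311% in control libraries after differentiation. Of 8 tested mast cell and basophil markers (10 listed), 7 were lower after and 5 before, with sums of 387 to 413 CPM in knockout and 687 to 701 CPM in control cells after, and 749 to 778 CPM in knockout and 957 to 1011 CPM in control cells before. Neutrophil markers (6 of 10 tested) were higher for 1 gene after and 4 before, with sums of 6.67 to 9.84 CPM in knockout and 4.00 to 5.25 CPM in control cells after, and 23.2 to 33.0 CPM in knockout and 9.01 to 10.0 CPM in control cells before. The neutrophil share called after differentiation, 16.7%, lies near the 16.8% of all genes called higher. Megakaryocyte markers (2 of 10 tested, PPBP at 0) summed to 55.4 to 56.4 CPM in knockout and 22.1 to 24.1 CPM in control cells after, and to 43.3 to 64.4 CPM in knockout and 27.4 to 30.7 CPM in control cells before. Macrophage markers (3 of 12 tested) summed to 3.23 to 4.50 CPM in knockout and 4.10 to 4.87 CPM in control cells after, and to 11.2 to 13.5 CPM in knockout and 8.72 to 10.3 CPM in control cells before. Lymphoid and stromal markers were at or under 1.26 CPM in sum in every library, with CD3E and VCAM1 at 0. After differentiation the erythroid, neutrophil and megakaryocyte sums were higher in knockout than in control cells, as were GCLC, GCLM, CAT, PRDX2 and SELENBP1, and the mast cell and basophil sum was lower, as was NQO1. Their part in those results was not tested.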

How the data were processed

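RNA was sequenced from 12 HUDEP-2 libraries. The authors deposited raw counts of read pairs per gene, without normalization. Per the file headers, pairs were counted over exons with featureCounts 1.4.6-p4 in the GENCODE 22 annotation of hg38 with no strand option. Per the submitters' processing notes the tools were Trimmomatic, FastQC, Subread 1.6.2, featureCounts 1.2.6 and edgeR 3.18.1. Per the labels' protocols the kit keeps strand and removes ribosomal RNA and globin mRNA. Symbols came from GENCODE 29 by identifier (56753 of 60483 genes), and gene coordinates and exon overlaps from the deposited table.

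Counts were analysed with edgeR 4.0.16 in R 4.3.3: filterByExpr by the 4 groups (17175 genes), TMM scaling, 1 mean per group fitted to all 12 libraries, glmQLFit and two-sided quasi-likelihood F-tests of 5 contrasts. The SE is the log2 fold change divided by the square root of F. The common biological coefficient of variation was 0.089. FPKM used the exon length in the deposited table. The script was tested on simulated data. Alternatives were other scaling, filters and fits, DESeq2 1.42.0, limma-voom (limma 3.58.1), the replicate number as a block, and each library left out.

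The members and lists were chosen with earlier results of these data known. Named genes are the 10 members, NFE2L2, KEAP1, BACH1 and MBD2, and others drawn from each pathway list. The rule gave up to 3 called genes with the smallest adjusted p in each genotype comparison and up to 2 in each other comparison. The text names only some of the genes that the rule gave, and both higher and lower ones were left out. The pathway genes named are therefore a further selection. Values of such a gene in a further comparison are given beside it.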

Additional observations from a re-analysis of the deposited data

Results flagged for a closer look

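The effect of the knockout differed between the stages, by the test of the difference itself, for 3 of the 10 genes. Of all tested genes 13% were called by that test, 6.28% with a positive and 6.68% with a negative difference. In each of the 3 genes the effect was larger after differentiation than before it. The log2 difference was 0.99 for SELENBP1 (adjusted p = 0.0110), 0.65 for CAT (adjusted p = 1.07e-04) and 0.59 for GCLC (adjusted p = 7.68e-04), from edgeR's quasi-likelihood fit. Knockout and control values of these 3 genes did not overlap at either stage, against 46.7% of all genes after and 30.7% before differentiation. That separation does not measure the difference between stages. GCLM and PRDX2 did not overlap at either stage either, and their stage difference was not called.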

How the results depend on the processing

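Over 22 alternatives (21 for the difference between stages), 1046 fold changes of the 10 genes kept their direction and side of the threshold, 18 lost a call, 6 gained one and 20 changed sign, all of them uncalled values near 0. DESeq2 and limma-voom gave the same calls for the 10 genes in all 5 comparisons. Leaving out 1 library gave 1024 to 1589 genes higher in knockout cells before differentiation, and 3 to 6 of the 10 genes higher and 0 to 1 lower there. It gave 817 to 1230 genes with a positive difference of the knockout effect between stages. A positive difference is a larger effect after differentiation only for genes that were higher in knockout cells. With library sizes only, 1843 genes were higher and 4826 lower in knockout cells after differentiation. The difference between stages was then positive for 644 genes and negative for 2146. In both comparisons every gene moved down together (the median shift is given above). The labels do not say that replicate numbers pair the libraries. Same-numbered libraries correlated at -0.02 to 0.24 in their deviations from group means. Between stages the same number gave the highest correlation for every replicate of control cells and for no replicate of knockout cells. Pairing by number is therefore neither shown nor excluded. With the replicate block 5 of the 10 genes had a larger effect after differentiation. GCLM (0.42, adjusted p = 0.0397) and PRDX2 (0.34, adjusted p = 0.0474) were added (edgeR), and no other call of the 10 genes changed. Over all 17175 tested genes the difference between stages was positive for 1344 and negative for 1384 with the block, against 1079 and 1148 in the main fit. KEAP1 was then also called, higher in knockout cells before differentiation (0.27, adjusted p = 0.0438) and lower with differentiation in knockout cells (-0.24, adjusted p = 0.0330).

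Changes of sign in knockout against control cells after differentiation were those of GPX1, GPX4, TXNRD1 and NFE2L2. GPX1 measured -0.0087 with RLE factors, -0.0092 with upper-quartile factors, -0.011 with DESeq2, -0.0084 with limma-voom, -0.0032 with only the compared groups, -0.023 without the filter on low counts, -0.16 with library sizes only and -0.090 to 0.065 when 1 library was left out. With library sizes only GPX4 measured -0.083, TXNRD1 -0.018 and NFE2L2 -0.069, and GPX4 ran from -0.022 to 0.13 when 1 library was left out. With differentiation GPX4 in knockout cells measured -0.15 with library sizes only, -0.015 without the filter and -0.060 to 0.15 when 1 library was left out. GCLC in control cells measured -0.0072 with library sizes only and -0.038 to 0.088 when 1 library was left out. For the difference between stages TXNRD1 measured -0.054 with library sizes only, and GPX4 ran from -0.20 to 0.013 and KEAP1 from -0.14 to 0.11 when 1 library was left out. The cause was not tested. Counts of 10 to 16 per library limit NQO1 in knockout cells after differentiation, and counts of 10 to 24 limit HMOX1 in control cells before it.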
